A study of Mus musculus with 8 samples.

Results

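Replication-dependent histone genes encode the histones that package newly copied DNA. H2A, H2B, H3 and H4 form the core of the nucleosome, and H1 histones bind the linker DNA between nucleosomes. These genes are short, lie in clusters, are transcribed mainly in S phase, and most of their mRNAs end in a conserved stem-loop instead of a poly(A) tail. Histone H3 trimethylated at lysine 4 (H3K4me3) marks the promoters of active genes and of silent genes poised for activation. Menin, the product of Men1, is a subunit of the MLL1 and MLL2 complexes that deposit this mark.

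The 67 members were all protein-coding genes of the mm9 annotation with a symbol that starts with Hist1h, Hist2h, Hist3h or Hist4, out of 22380 protein-coding genes. They comprised 6 H1, 19 H2a, 18 H2b, 11 H3 and 13 H4 genes. Of these, 55 lay on chromosome 13, 9 on chromosome 3, 2 on chromosome 11 and 1 on chromosome 6. In 61 of 67 the annotated models had 1 exon.

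ChIP-Seq of H3K4me3 and sequencing of input chromatin were compared in mouse embryonic stem cells (mESCs) and in pancreatic islet-like endocrine cells (PILECs) differentiated from them in culture. The wt line was TC-1 and the menin-null line, knocked out for Men1, was 3.2N, both of 129S6/SvEvTac background and both freed of feeder cells. Each of the 4 cell populations gave 1 H3K4me3 library and 1 input library, and each genotype rests on 1 line, so a difference between lines, libraries or cultures cannot be told apart from the effect of menin or of differentiation, and no condition was tested. A level here is the number of tags (uniquely mapped 36-base reads) within 1 kb of the transcription start site (TSS) scaled to a library of 1000000 tags (RPM), with an exact Poisson 95% interval, and a comparison is a log2 ratio of RPM with 1 tag added to each count and an exact conditional binomial 95% interval. These intervals cover counting error only. A member was called higher or lower where the ratio was at least 2-fold and its interval excluded 0, among genes with at least 10 tags in both libraries together.

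For mESCs the H3K4me3 depth was 2432377 tags (wt) and 3517028 tags (menin-null), and for PILECs 18773635 tags (wt) and 17682677 tags (menin-null), so values from PILECs are the more precise. Tags that repeated a position and strand made up 11.4% (wt) and 4.17% (menin-null) in mESCs. In PILECs they made up 11.5% (wt) and 11.4% (menin-null). Such tags were kept, and the intervals treat each as a separate count. Over the inner exons of Men1 (chr19:6336725-6338961) the 4 menin-null libraries held 0 tags each, against 17 and 22 tags in the wt mESC and wt PILEC inputs and 0 and 20 in the wt H3K4me3 libraries. All 7 mESC markers on the list were marked in mESCs and 3 of 7 in each PILEC library, with a summed level of 315 and 403 RPM in mESCs against 63.1 and 64.5 RPM in PILECs. Of 8 islet markers, Neurod1, Nkx2-2 and Nkx6-1 were marked in PILECs, while Ins1, Ins2, Gcg, Iapp and Pdx1 were not. The same 3 and Pdx1 were marked in wt mESCs and 2 of 8 in menin-null mESCs, and the islet list summed to 32.1 and 28.1 RPM in mESCs, above its 20.8 and 24.2 RPM in PILECs. The 5 fibroblast markers summed to 44 and 50.6 RPM in mESCs and 69.5 and 54.2 RPM in PILECs, and the 4 neural markers found to 61.7 and 84.4 RPM in mESCs and 112 and 113 RPM in PILECs. The part of other cell types in the values below was not tested.

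Sequences are shown here for the mRNA ends that define the class and for promoters that the results turn on. Within 150 bases after the coding part, 39 of 67 members held the same hairpin exactly and 59 held it with up to 2 mismatches, against 40 and 61 of all 22380 genes. The capitals below mark the 2 arms of the stem, read from the mm9 genome.
Hairpin of 39 H1, H2a, H2b and H3 genes: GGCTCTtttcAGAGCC
Hairpin of 9 H1, H2a, H2b and H3 genes: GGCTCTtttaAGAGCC
Hairpin of 8 H4 genes: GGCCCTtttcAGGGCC
None of the 39 exact matches was an H4 gene, and the 8 H4 genes with a hairpin shared the third form. The 8 members with no match in this stretch were Hist1h4a, Hist1h4b, Hist1h4i, Hist1h4j, Hist1h2al, Hist2h2be, Hist2h2bb and Hist2h4. The shared H4 form already differs from the first form at 2 positions, so an H4 hairpin with a further change was not counted. For Hist2h2bb, whose coding part is annotated in 2 pieces, the search began after the last piece. A member without a match therefore need not lack a stem-loop.

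Promoters, taken from 250 bases before to 50 bases after the TSS, were searched on both strands for 3 motifs, none of which contains another. They were the TATA box, spelled TATAAA, the box spelled CCAAT, and the octamer, spelled ATTTGCAT and known as a binding site of Oct-1. The TATA box was found at 56.7% of the members and at 12.2% of all promoters, and the CCAAT box at 85.1% and 35.6%. The octamer was found at 22.4% of the members and at 1.64% of all promoters. All 6 H1, 19 H2a and 18 H2b promoters held CCAAT, against 4 of 13 H4 promoters. The octamer was found at 7 of 19 H2a and 8 of 18 H2b promoters and at 0 of the H1, H3 and H4 promoters. Where members start back to back, as described below, their promoters overlap and the same site can count for both genes. Median GC content was 46% for the members and 57.7% for all promoters. A match is a description of letters and not a binding site.

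An H2a gene and an H2b gene started back to back less than 350 bp apart in 12 places, which accounts for 24 of the 67 members. The stretches between the starts of 4 such pairs are given in mm9, on the plus strand, with matches to the 3 motifs in capitals. The first pair was called higher in wt PILECs than in wt mESCs, the next holds the H2b gene nearest its family's median, and the last 2 are the pairs without unique sequence.
Hist1h2ae and Hist1h2bg, chr13:23663090-23663264: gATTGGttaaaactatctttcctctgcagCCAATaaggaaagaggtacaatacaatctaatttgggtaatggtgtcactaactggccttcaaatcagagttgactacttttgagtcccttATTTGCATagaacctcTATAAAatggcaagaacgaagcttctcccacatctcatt
Hist1h2ah and Hist1h2bk, chr13:22127513-22127689: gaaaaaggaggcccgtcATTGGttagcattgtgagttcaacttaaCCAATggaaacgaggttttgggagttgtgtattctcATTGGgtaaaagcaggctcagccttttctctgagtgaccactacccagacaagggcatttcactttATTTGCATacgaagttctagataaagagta
Hist1h2bq and Hist1h2ao, chr13:21902069-21902235: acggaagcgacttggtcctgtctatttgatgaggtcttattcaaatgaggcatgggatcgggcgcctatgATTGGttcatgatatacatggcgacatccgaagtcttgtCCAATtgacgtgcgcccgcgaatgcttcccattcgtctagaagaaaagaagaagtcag
Hist1h2ap and Hist1h2br, chr13:21925445-21925611: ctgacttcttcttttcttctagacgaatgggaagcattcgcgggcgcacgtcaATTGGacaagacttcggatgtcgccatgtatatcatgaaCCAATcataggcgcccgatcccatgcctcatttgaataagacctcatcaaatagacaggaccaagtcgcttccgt
The Hist1h2ae and Hist1h2bg stretch held 1 TATA box, 2 CCAAT boxes and 1 octamer match, and the Hist1h2ah and Hist1h2bk stretch held 3 CCAAT matches and 1 octamer match. The last 2 stretches, both 167 bp long, differed at 0 positions once 1 of them was read as its reverse complement.

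Tags were deposited for unique positions only, so identical copies limit the count. Summed over the members' windows, 45256 tags began words of 36 bases that occur once in mm9, and 0 began a repeated word. A tag in overlapping windows counts once for each of them in this sum. Over both strands of the windows a median of 76.5% of words were unique, with 12 members over 90% and 9 under 50%. Coding parts were less unique than windows, with a median of 19.3%, and the family medians were 13.5% for H2a, 16.1% for H2b, 14.3% for H3, 25.5% for H4 and 85.7% for H1. By their annotated coding parts, the 13 H4 genes encode 1 protein, the 11 H3 genes 3 and the 6 H1 genes 6. The annotated H3 proteins are 136 to 181 amino acids long, so not all 3 need be real H3 forms.

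No level could be measured for 4 genes. Hist1h2bq, Hist1h2ao, Hist1h2ap and Hist1h2br had no unique word in their windows and 0 tags in all 8 libraries, so no level can be stated for them. Hist1h4m, an H4 gene with 4.75% unique words, had 0, 0, 1 and 4 tags in wt mESCs, menin-null mESCs, wt PILECs and menin-null PILECs. Hist1h4n, with 5% unique words, had 0, 3, 40 and 19 tags in the same order. Hist2h2aa1, Hist2h2aa2 and Hist2h3c1 were 41.9%, 41.3% and 41.1% unique.

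Windows also overlap, since 47 members shared part of a window with a neighbour in 20 blocks, and the 67 windows formed 40 separate stretches. Members of a block share tags and are not separate measurements. The start used for Hist1h2be was the one with more H3K4me3 of its 2 annotated starts, and it lies 35168 bp from the coding part. The start used for Hist2h3c1 lies 1197 bp from its coding part, beside the start of Hist2h2aa1. Levels at these starts therefore need not belong to the named gene.

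H3K4me3 was above input at most members. A gene was counted as marked where it held at least 10 tags and at least 3 times the input RPM with 1 tag added to each count, with an interval of that ratio above 1. In wt mESCs 55 of 67 members were marked, where 57.4% of all protein-coding genes were. Within 500 bp of the TSS, where the share of all genes was not computed, 35 of 67 were marked in wt mESCs, 45 in menin-null mESCs, and 59 and 60 in wt and menin-null PILECs. Menin-null mESCs had 57 of 67 marked (58% of all genes). The PILEC libraries had 59 of 67 each, wt (58.2% of all genes) and menin-null (57.5% of all genes). Of the 67, 54 were marked in all 4 libraries, against 11894 of the 22313 other genes, and 8 were marked in none. The 8 were the 4 genes without unique words, Hist1h4m, and the testis genes Hist1h1t, Hist1h2aa and Hist1h2ba.

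Although widely marked, the members carried little H3K4me3 for marked genes. The median of marked members was 10.3, 10.5, 14.6 and 12.3 RPM in wt mESCs, menin-null mESCs, wt PILECs and menin-null PILECs, against 31.2, 36.4, 32.5 and 30.3 RPM over all marked genes. Levels in RPM were not corrected for the share of non-unique words, and its part in this difference was not tested. For every gene the start with the most H3K4me3 was used, which can raise the level of genes with several annotated starts. Few members had several, and the part of this choice in the levels and in the shares of marked genes was not tested. Per 1000 unique positions, the 61 members with at least 1000 such positions had medians of 3.36, 3.28, 4.93 and 4.49 RPM.

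**Figure D1:**
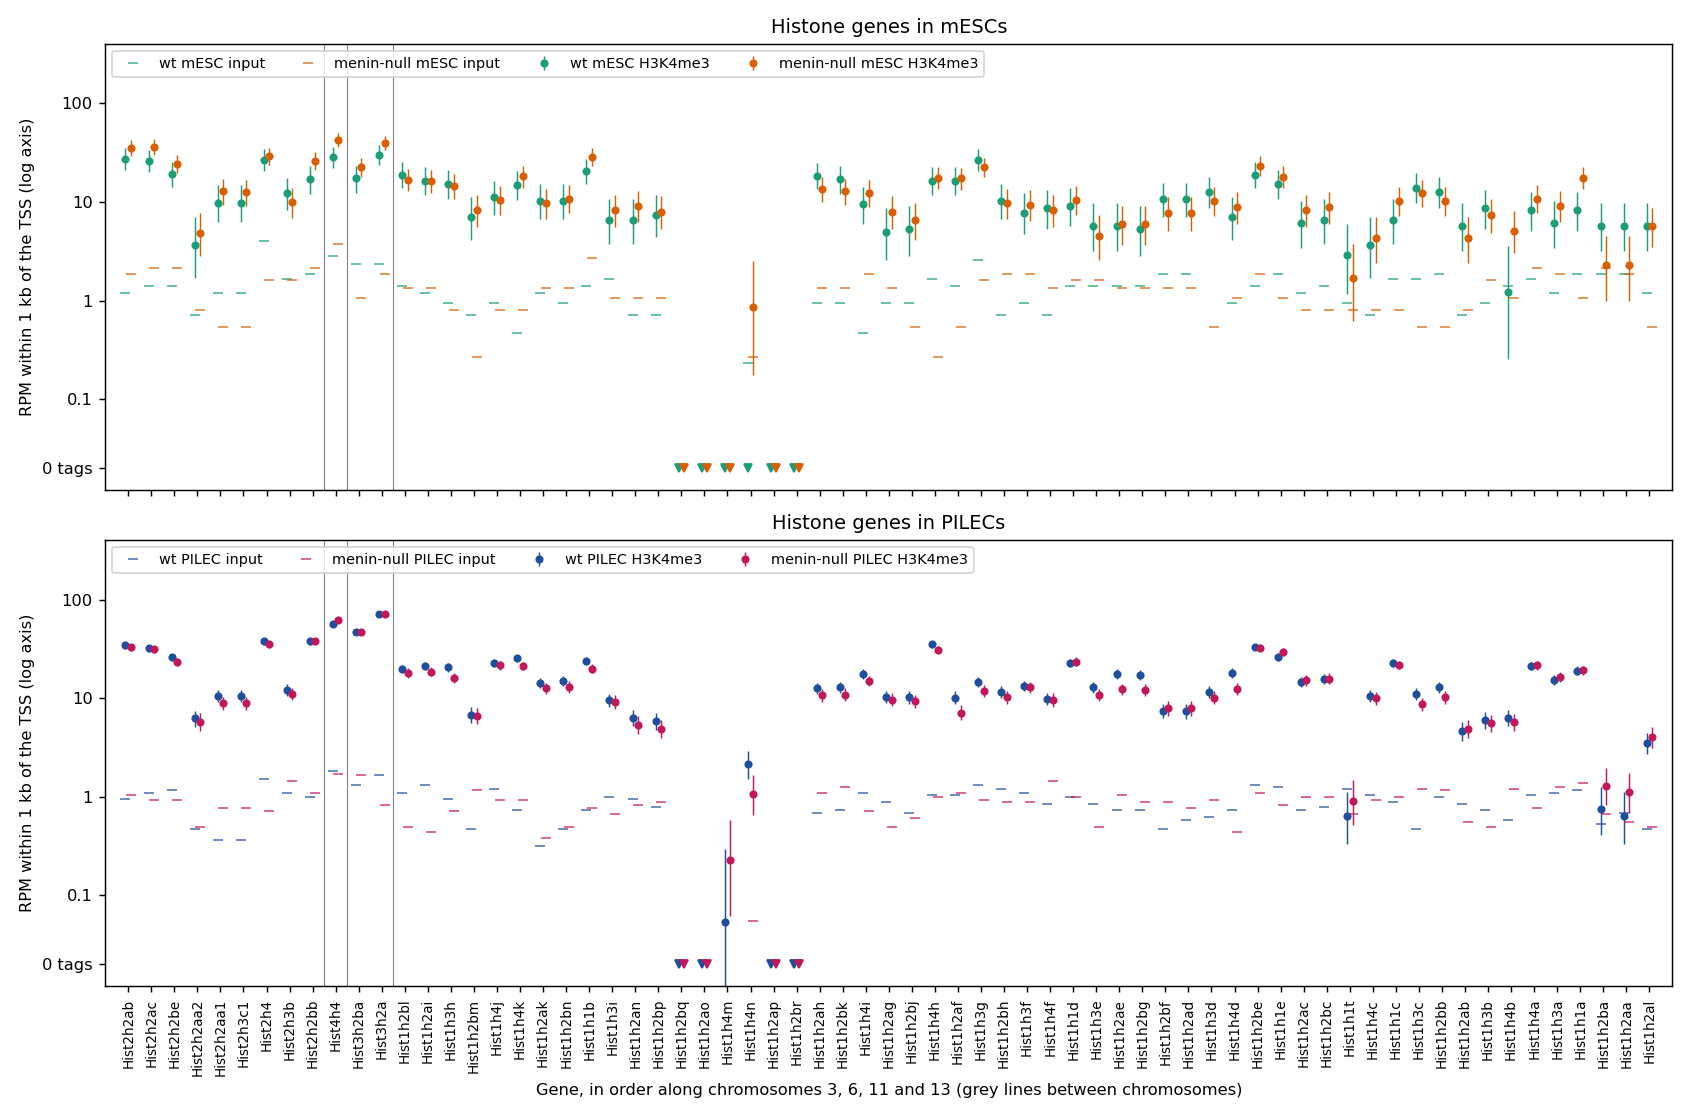
H3K4me3 level (RPM within 1 kb of the TSS, log axis) of the 67 histone genes in mESCs (top) and PILECs (bottom), in order along chromosomes 3, 6, 11 and 13. Points with bars are H3K4me3 levels with exact Poisson 95% intervals, dashes are inputs (those with 0 tags are not drawn) and triangles mark 0 tags. Most points lie above the dashes, those of the 3 testis genes in PILECs lie near them, and 4 genes sit at 0 tags throughout.

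In PILECs the highest levels belonged to the 3 genes of the small Hist3 and Hist4 groups, while in mESCs this held for Hist3h2a and Hist4h4 and not for Hist3h2ba. Hist3h2a, an H2A gene at chr11:58768187 (plus strand), had 30 RPM (73 tags) and 39.8 RPM (140 tags) in wt and menin-null mESCs, and 72.2 RPM (1356 tags) and 72 RPM (1273 tags) in wt and menin-null PILECs. It ranked 300 of 22380 genes in wt PILECs, against 6716 in wt mESCs. Hist4h4, an H4 gene at chr6:136752900 (minus strand), had 28.4, 42.9, 57.1 and 61.4 RPM in the same order. Hist3h2ba, an H2B gene at chr11:58762413 (plus strand), had 17.3, 22.5, 47 and 47.3 RPM. For these 3 genes the 95% intervals of both PILEC levels lay above those of both mESC levels, and the 2 PILEC levels overlapped each other.

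Among the Hist2 genes of chr3:96023839-96073644, the H2A genes Hist2h2ab and Hist2h2ac were among the 3 highest in wt mESCs (27.5 RPM) and in menin-null mESCs (36.1 RPM), respectively. The median of the 9 Hist2 genes was 16.9, 24.5, 25.9 and 23.3 RPM over wt mESCs, menin-null mESCs, wt PILECs and menin-null PILECs. On chromosome 13 the 29 genes of chr13:23622919-23855537 had medians of 8.22, 9.1, 13.4 and 11.9 RPM, and the 14 genes with tags of the 18 in chr13:21808012-21925612 had medians of 10.3, 10.1, 14.6 and 12.9 RPM. The latter stretch holds the 4 genes without unique words, left out of these medians, and also Hist1h4m and Hist1h4n.

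The members nearest their family's median in wt PILECs, with the genes without unique words counted at 0, are given as examples. Without those genes the wt PILEC median was 10.6 RPM for 17 H2a and 14 RPM for 16 H2b genes, and 12.1 RPM for H3 and 18.1 RPM for H4 genes. Hist1h2ag (H2A) had 4.93, 7.96, 10.3 and 9.67 RPM in wt mESCs, menin-null mESCs, wt PILECs and menin-null PILECs. Hist1h2bk (H2B) had 16.9, 12.8, 12.9 and 10.9 RPM, Hist2h3b (H3) 12.3, 9.95, 12.1 and 11.1 RPM, and Hist1h4d (H4) 6.99, 8.81, 18.1 and 12.4 RPM. Hist1h2ag and Hist1h4d were thus highest in wt PILECs, and Hist1h2bk and Hist2h3b in wt mESCs, though some of these ranks lie within counting error. The log2 ratio of wt PILECs over wt mESCs was −0.06 (−0.58 to 0.58) for Hist2h3b and −0.42 (−0.87 to 0.13) for Hist1h2bk. That of menin-null over wt PILECs was −0.09 (−0.40 to 0.21) for Hist1h2ag.

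Of the 6 linker histone genes, 5 were marked in every library. Hist1h1b had 20.6, 28.7, 23.8 and 19.8 RPM in wt mESCs, menin-null mESCs, wt PILECs and menin-null PILECs, and was the H1 gene with the most tags in mESCs. Hist1h1e had 15.2, 17.9, 26.2 and 29.6 RPM, Hist1h1d 9.04, 10.5, 22.7 and 23.5 RPM, Hist1h1c 6.58, 10.2, 22.7 and 21.7 RPM, and Hist1h1a 8.22, 17.6, 19 and 19.2 RPM. These 4 were higher in wt PILECs than in wt mESCs without overlap of their intervals.

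Hist1h1t, the testis H1, had 2.88, 1.71, 0.639 and 0.905 RPM, from 7, 6, 12 and 16 tags against 4, 3, 23 and 12 input tags. The testis-specific H2A and H2B genes Hist1h2aa and Hist1h2ba start 305 bp apart and share nearly all tags. Hist1h2aa had 5.76, 2.27, 0.639 and 1.13 RPM, from 14, 8, 12 and 20 tags against 8, 7, 13 and 10 input tags. Hist1h2ba had 5.76, 2.27, 0.746 and 1.3 RPM, from 14, 8, 14 and 23 tags against 8, 8, 10 and 12 input tags. The windows were 100% unique for Hist1h1t and 90.5% for the pair, and with 1 tag added to each count all 3 stayed under 3 times the input in the 4 libraries. Without the added tag each of the 3 was at 3.06 times the input RPM in wt mESCs, where Hist1h2aa and Hist1h2ba would then count as marked, and under 3 times in the other libraries.

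The order of the members was compared between libraries. Over the 63 members with tags, Spearman's rho between levels was 0.91 for the 2 mESC libraries, 0.99 for the 2 PILEC libraries, 0.68 for wt mESCs with wt PILECs and 0.80 for menin-null mESCs with menin-null PILECs. Across both cell type and genotype it was 0.82 for menin-null mESCs with wt PILECs and 0.66 for wt mESCs with menin-null PILECs. Members of a block share tags, and the mESC libraries were shallower. The share of unique words differs between members and is the same in every library, so it can make the orders alike. The part of each in these values was not tested.

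Around the TSS the members with tags, some of them unmarked, differed in shape from other genes marked in all 4 libraries. Of the tags within 2 kb, the median member had 32.4%, 30.8%, 32.9% and 40.7% within 500 bp of its TSS (wt mESCs, menin-null mESCs, wt PILECs, menin-null PILECs), against 71.8%, 74.4%, 65.7% and 67.4% for the 11894 other genes marked in all 4 libraries. The median upstream share within 1 kb was 33% to 38.2% for members and 27.6% to 31.8% for the others. In wt PILECs the mean member had 0.678 RPM per 50-bp bin from 100 to 400 bp after the TSS and 0.482 from 500 to 1000 bp, while other marked genes had 1.7 and 0.734. Uniqueness was lowest in the same stretch, at 38.8% in the bin centred 225 bp after the TSS against 84.4% on average from 500 to 1000 bp, and its part in the shape was not tested. Neighbouring members within 2 kb also add tags to the wider window.

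**Figure D2:**
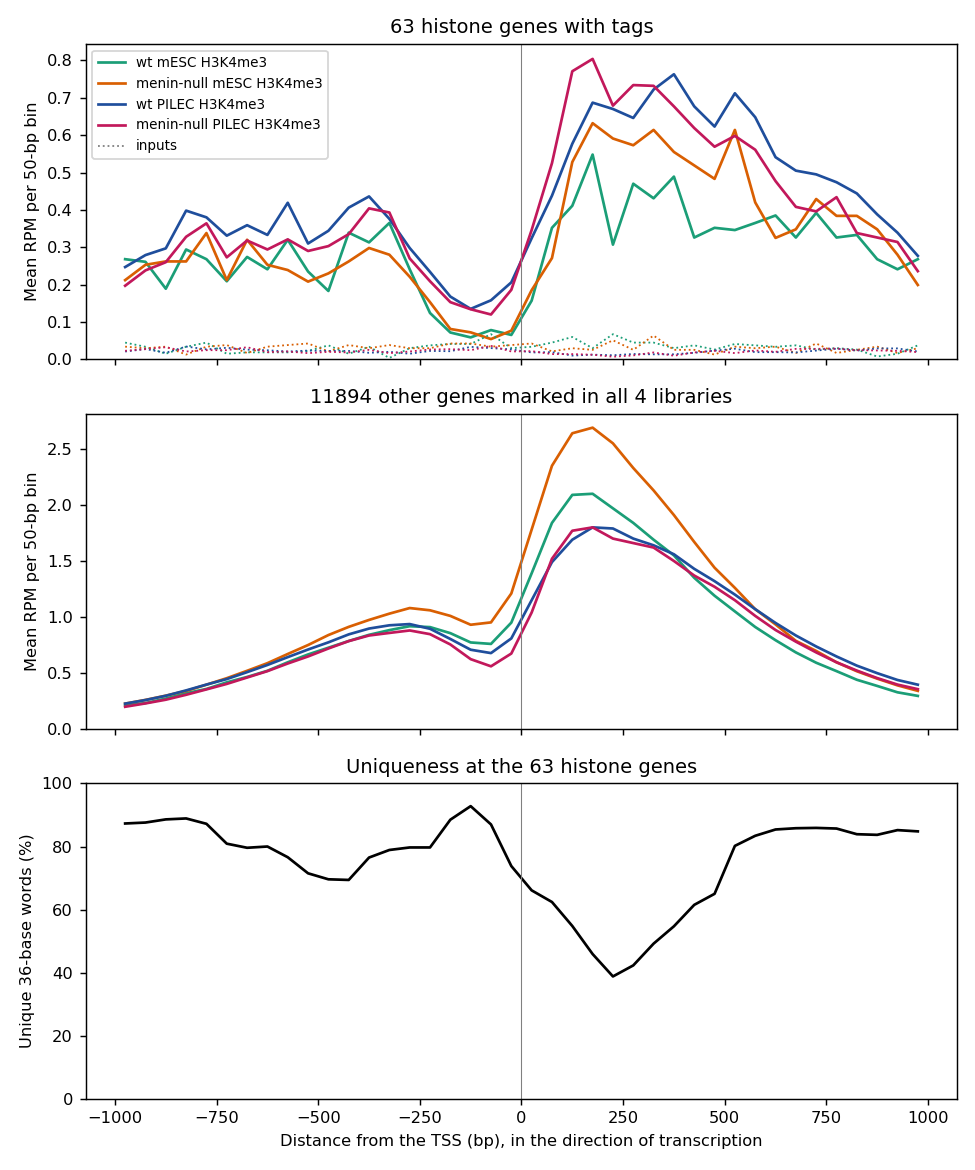
Mean H3K4me3 (RPM per 50-bp bin, solid lines by library) from 1 kb before to 1 kb after the TSS at the 63 histone genes with tags (top; dotted lines are inputs) and at 11894 other genes marked in all 4 libraries (middle), and the percent of unique 36-base words at the histone genes (bottom). The members' signal is low just before the TSS and broad after it, and uniqueness is lowest (38.8%) 225 bp after the TSS. Other marked genes have their maximum at 175 bp in all 4 libraries. The members have theirs at 175 bp too, except in wt PILECs (375 bp).

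PILECs were compared with mESCs of the same genotype to see how the mark at these genes differed between stem cells and their differentiated derivatives. In wt cells the median log2 ratio of the 62 members with enough tags was 0.44, against −0.12 over 18194 genes. Of the 62, 18 were called higher in wt PILECs (5.09% of all genes were) and 3 lower (12.6% of all genes were), and with 5 tags added to each count the 18 became 10. The 18 calls come from overlapping windows in part, since 13 of 39 merged stretches were called higher and 2 lower. Shares of all genes were not computed with 5 tags added or for merged stretches. By family, 3 of 6 H1, 3 of 17 H2a, 4 of 16 H2b, 2 of 11 H3 and 6 of 12 H4 genes were called higher. The 18 and the 6 H4 genes include Hist1h4n, whose call rests on the added tag and does not hold at its lower bound of 1.73-fold.

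H4 genes, all of which encode the same protein, had the largest family median in wt cells. Their median log2 ratio was 1.03, or 0.98 with Hist1h4n at its lower bound, and 12 of 12 were above 0. Medians of the other families were 0.94 for H1, 0.26 for H2a, 0.26 for H2b and 0.04 for H3. The order of H4 and H1 turns on Hist1h1t, which was marked in no library and had −2.25. The other H1 genes had 0.19, 0.75, 1.14, 1.27 and 1.71, with a middle value (1.14) above the H4 median. The H3 median is the value of Hist2h3c1, whose level need not belong to that gene. Hist1h4b had 3 tags (1.23 RPM) in wt mESCs and 119 (6.34 RPM) in wt PILECs, which is 1.96 on the log2 scale (0.78 to 4.66). Hist1h4n went from 0 to 40 tags, or at least 1.73-fold higher against a floor of 3 tags in wt mESCs, and had only 200 unique positions. Hist1h4d, with 17 and 340 tags, had a log2 ratio of 1.30 (0.67 to 2.17). Hist4h4 lay just under the 2-fold line at 0.99 (0.66 to 1.38).

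The other large ratios were spread over the remaining families. Hist1h1c, with 16 and 427 tags, had a log2 ratio of 1.71 (1.07 to 2.61), Hist1h1d 1.27 (0.71 to 2.02) and Hist1h1a 1.14 (0.56 to 1.94). Hist1h1b, at 0.19 (−0.21 to 0.66), was not called. The back-to-back genes Hist1h2bg (13 and 324 tags, 1.59, 0.90 to 2.62) and Hist1h2ae (14 and 331 tags, 1.52, 0.85 to 2.50) share most of these tags, and their promoter is printed above. Hist1h2ah and Hist1h2bk, a pair of the same arrangement with an octamer match as well, had log2 ratios of −0.58 (−1.02 to −0.06) and −0.42 (−0.87 to 0.13). Hist3h2ba and Hist3h2a had 1.41 (1.00 to 1.93) and 1.25 (0.93 to 1.63).

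The 3 members called lower in wt PILECs were the testis genes. Hist1h2aa had a log2 ratio of −3.15 (−4.41 to −1.95), Hist1h2ba −2.95 (−4.13 to −1.77) and Hist1h1t −2.25 (−3.63 to −0.59). They held 14, 14 and 7 tags in wt mESCs, close to the line for marked genes, at 2.91, 2.91 and 2.79 times the input with 1 tag added and 3.06 times without. In wt PILECs they were at 0.941, 1.38 and 0.549 times the input with 1 tag added. The Hist1h1t call was lost in 4 of 15 alternatives to the processing, with ratios from −2.63 to −0.41. Hist1h2aa and Hist1h2ba kept their calls in all 15.

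In menin-null cells the median log2 ratio of PILECs over mESCs was 0.13 for 62 members, against −0.33 over 18490 genes. Of the 62, 6 were called higher (3.98% of all genes were) and 1 lower (18.6% of all genes were). These counts depended on the processing, with 0 higher when 5 tags were added, 2 higher with 1 tag per position, and 13 higher and 0 lower within 500 bp of the TSS. Shares of all genes under those settings were not computed. The 6 were Hist1h3e at 1.18 (0.52 to 2.09), Hist1h4c at 1.14 (0.46 to 2.09), Hist1h1d at 1.13 (0.67 to 1.69), Hist3h2ba at 1.06 (0.74 to 1.43), Hist1h1c at 1.05 (0.59 to 1.62) and Hist1h4j at 1.00 (0.55 to 1.57). Family medians were 0.40 for H1, 0.36 for H4, 0.11 for H3, 0.06 for H2b and 0.00 for H2a, so H4 was not the highest family here. The H2A gene Hist1h2af was called lower, from 61 to 126 tags at a log2 ratio of −1.30 (−1.74 to −0.82). In wt cells it was at −0.73 (−1.20 to −0.17) and not called.

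The wt and menin-null comparisons use different libraries. The calls shared 5 members that were higher in both, which is 27.8% of the 18 in wt cells and 83.3% of the 6 in menin-null cells, and Hist1h4j, at 0.98 in wt cells, just missed the line there. Of 62 members, 51 had the same sign in both and 46 had the larger ratio in wt cells, while the medians of all genes differed by 0.21 in the same direction. The overlap of calls and the shared signs were not computed over all genes, so these shares cannot be called particular to the members. Whether the 2 genotypes differ was not tested. With each comparison centred on the median of all genes, 21 members were called higher and 3 lower in wt cells (6.54% and 11.4% of all genes), and 15 higher and 0 lower in menin-null cells (7.32% and 12.8%). The testis pair had −1.11 (−2.25 to 0.38) for Hist1h2aa and −0.91 (−2.02 to 0.56) for Hist1h2ba in menin-null cells, where neither was called.

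**Figure D3:**
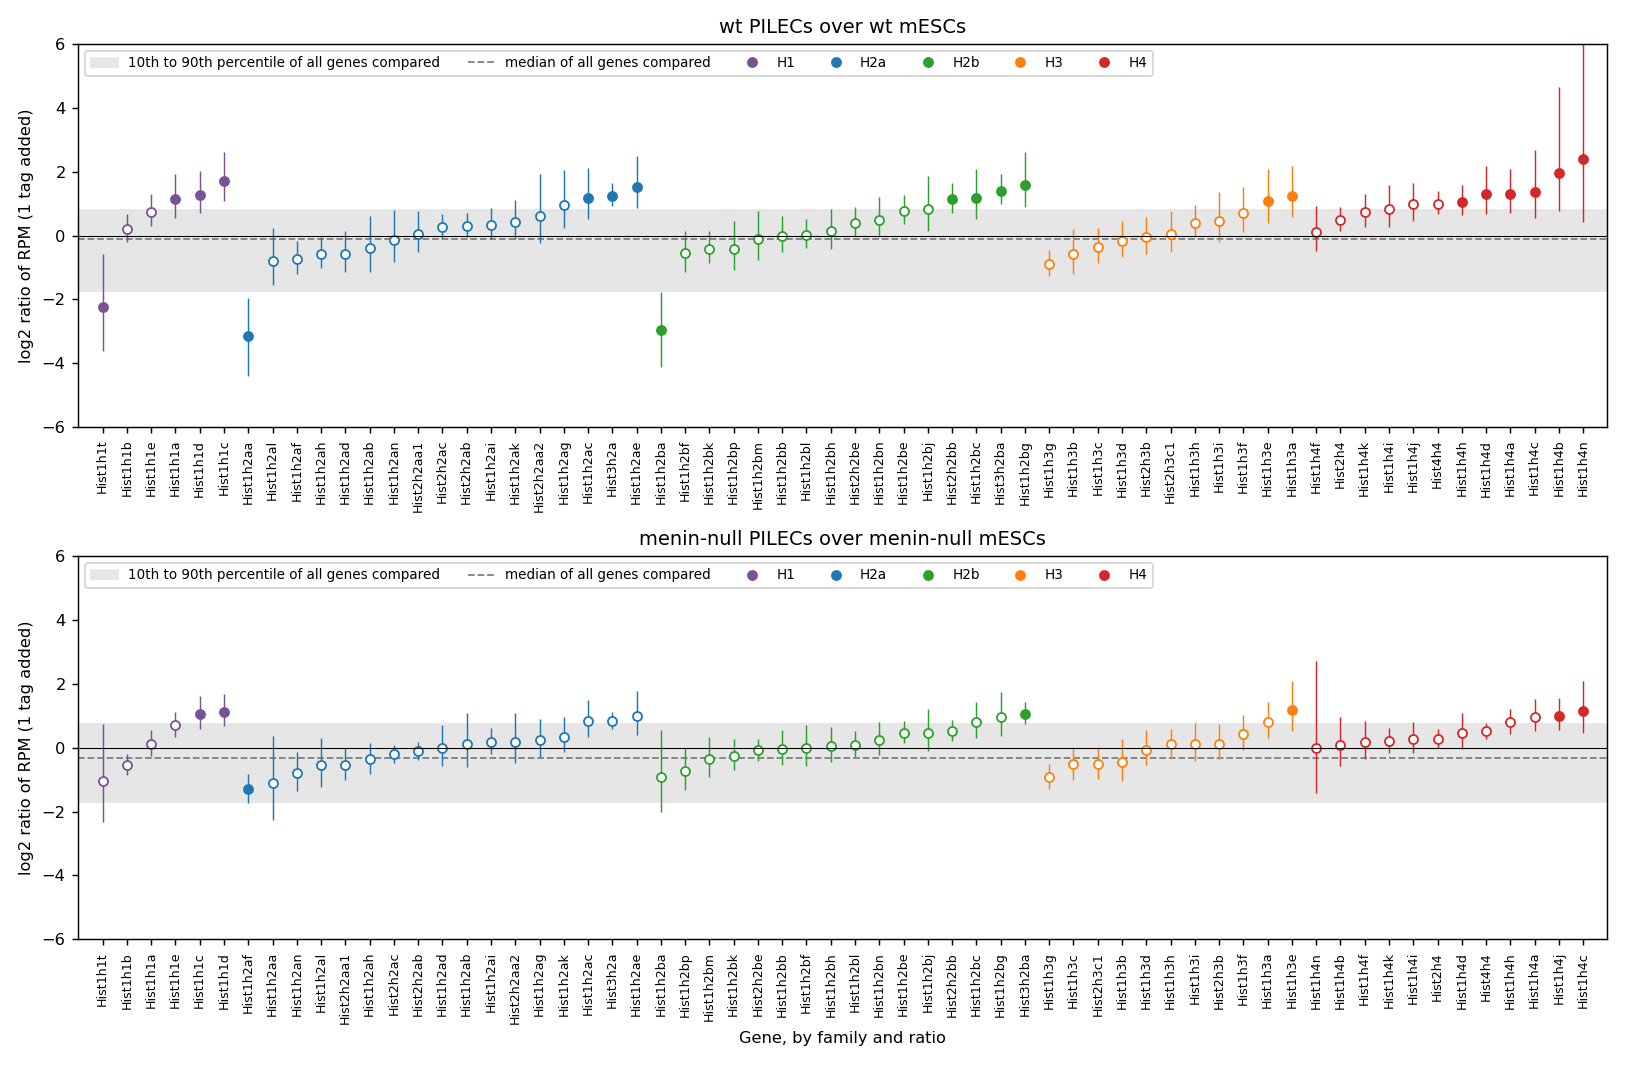
log2 ratio of H3K4me3 RPM, PILECs over mESCs, for 62 histone genes in wt cells (top) and menin-null cells (bottom), grouped by family and ordered by ratio. Filled points were called at least 2-fold, bars are exact 95% intervals (counting error only, the bar of Hist1h4n has no upper end in wt cells), the dashed line is the median and the grey band the 10th to 90th percentile of all genes compared. All 12 H4 points in the top panel lie above 0, and the 3 testis genes lie far below.

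Input over the clusters was compared in the same way. Over the stretch of the 29 chromosome 13 genes with 5000 bp on either side, input log2 ratios were −0.08 (−0.22 to 0.08) for wt PILECs over wt mESCs and 0.04 (−0.11 to 0.21) for the menin-null pair. Over the Hist4h4 stretch the wt ratio of input was −0.82 (−1.36 to −0.20), against an H3K4me3 ratio of 0.99 for the gene. Over all 8 stretches and 4 comparisons the input ratios ran from −0.83 to 0.67.

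Menin-null cells were compared with wt cells at each stage to see whether the mark at histone genes depended on menin. In mESCs the median log2 ratio of 61 members was 0.15, against 0.22 over 14575 genes. Of these, 2 were called higher (0.741% of all genes were) and 0 lower (0.762% of all genes were). Hist1h1a had 20 tags in wt and 62 in menin-null mESCs, a log2 ratio of 1.05 (0.35 to 1.91). Hist1h4b had 3 and 18 tags, a ratio of 1.72 (0.28 to 4.46). Both calls were lost with tags not moved along the fragment and with 5 tags added. Both rest on few tags in the wt mESC library, and in PILECs the same genes were at 0.01 and −0.15. Centred on the median of all genes, Hist1h4b was the only member called higher (0.226% of all genes were), and Hist1h2aa and Hist1h2ba were called lower (1.85% of all genes were). In 21 of 61 members (34.4%, against 68.9% of all genes) the interval lay within 2-fold in both directions, and for the other 40, which include Hist1h1a and Hist1h4b, a 2-fold difference lay within the interval.

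In PILECs none of the 62 members with enough tags reached 2-fold between genotypes, and Hist1h4m, with 1 and 4 tags, was not compared. The median log2 ratio was −0.10 over 62 members, against −0.07 over 20429 genes, and 0 members were called higher or lower, where 1.15% of all genes were called higher and 1.13% lower. The interval lay within 2-fold for 58 of 62 members (93.5%, against 62.5% of all genes). Of these 62, 12 (19.4%) had intervals wholly below 0 and 0 wholly above, against 21.3% and 5.08% of all genes, so the share below 0 was near that of all genes. The ratios furthest below 0 were −0.95 (−1.86 to −0.17) for Hist1h4n, −0.54 (−0.79 to −0.29) for Hist1h4d, −0.52 (−0.78 to −0.27) for Hist1h2ae, −0.50 (−0.76 to −0.25) for Hist1h2bg and −0.50 (−0.84 to −0.17) for Hist1h2af. The ratios furthest above 0 were 0.78 (−0.28 to 1.99) for Hist1h2aa and 0.76 (−0.22 to 1.87) for Hist1h2ba, with intervals that include 0. Hist3h2a, at 72.2 and 72 RPM, and Hist3h2ba, at 47 and 47.3 RPM, were level between genotypes. The 2 genotype comparisons and the 2 stage comparisons draw on the same 4 libraries, so a low or high value in 1 library enters 2 ratios.

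**Figure D4:**
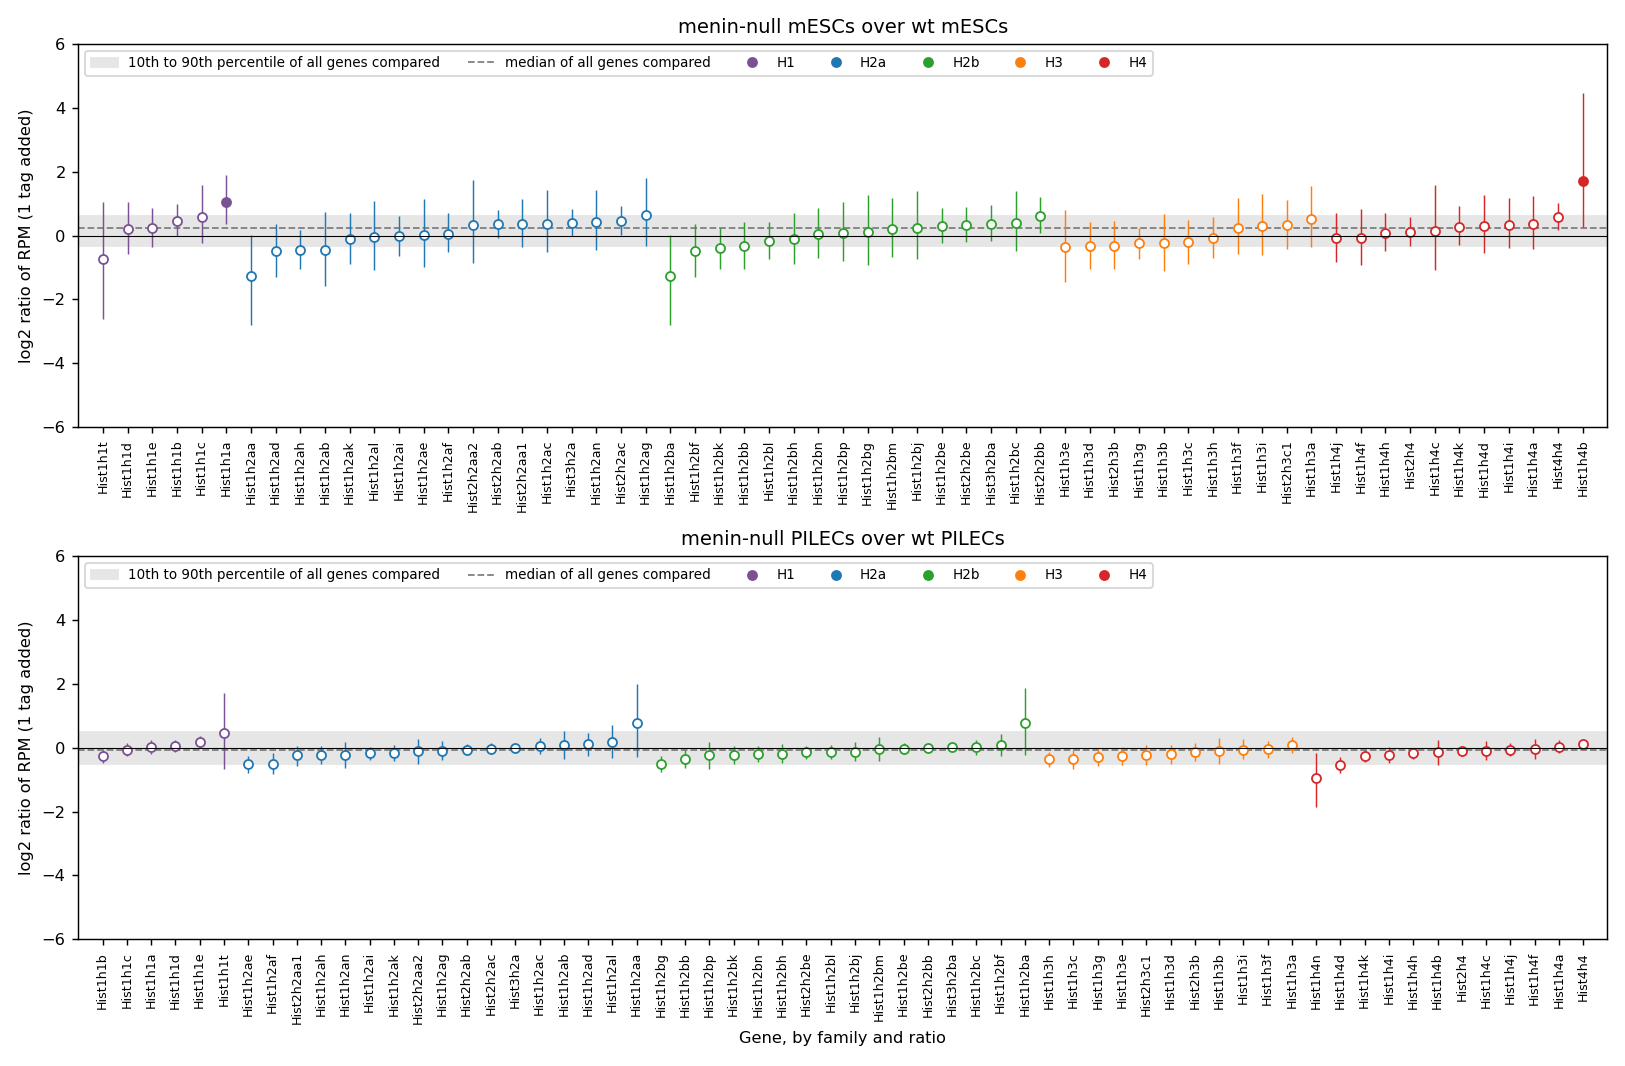
log2 ratio of H3K4me3 RPM, menin-null over wt, in mESCs (top, 61 histone genes) and PILECs (bottom, 62 genes), by family and ratio. Filled points were called at least 2-fold, bars are exact 95% intervals, the dashed line is the median and the grey band the 10th to 90th percentile of all genes compared. Hist1h1a and Hist1h4b are filled in mESCs and no point is filled in PILECs, where bars are short.

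Other genes of histone supply had higher median levels than the members. The 10 measured replication-independent histone genes, such as H3f3a and H2afx, were marked in all 4 libraries, with medians of 45.6, 62.4, 42.1 and 37.9 RPM in wt mESCs, menin-null mESCs, wt PILECs and menin-null PILECs. All 19 genes of histone gene transcription and mRNA 3′ end processing were marked too, with medians of 46.9, 56.9, 32.4 and 32.3 RPM, as were all 13 histone chaperones. Npat, the coactivator of histone genes, had 46.9, 62.3, 60.2 and 57.1 RPM, and Slbp, which binds the stem-loop of histone mRNAs, 58.8, 53.2, 44.2 and 43.8 RPM.

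From mESCs to PILECs, 0 of the 10 replication-independent genes were called higher and 0 lower in wt cells, with a median log2 ratio of −0.29, and 0 higher and 3 lower in menin-null cells at −0.71. The transcription and processing list had 0 higher and 2 lower in wt cells at −0.19, the cyclin gene Ccne1 at −1.08 and E2f1 at −1.21, and 0 higher and 3 lower in menin-null cells at −0.49. Of the chaperones, 1 was lower in wt cells, the CAF-1 subunit gene Chaf1a at −1.02, and 4 in menin-null cells. Of all genes, 12.6% were called lower in wt cells and 18.6% in menin-null cells, and these small lists were not tested against that share. Between genotypes 0 genes of these 3 lists were called in mESCs or in PILECs.

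Protein-coding genes that start between members, with gaps between the chromosome 13 clusters included, were mostly unmarked. Of these 48 neighbours, 32 were vomeronasal receptor genes with a Vmn1r symbol, of which 0 were marked and whose level never exceeded 0.853 RPM. Of the other 16, among which V1rh19 was counted by its symbol, 6, 7, 8 and 8 were marked in the 4 libraries. The zinc finger genes Zfp184 (40.7, 39.8, 48.3 and 48.4 RPM) and Zfp322a (39.5, 36.4, 43.7 and 44.1 RPM) were above the members' upper quartile in every library.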

How the data were processed

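Of the 8 libraries, 4 were H3K4me3 ChIP-Seq and 4 input, 1 per group, and expression arrays of the study were not used here. The authors aligned 36-base reads to mm9, kept tags that mapped to a unique place, and deposited tag positions without pooling. Each line also carries a deposited score, in whole numbers between 4 and 119, whose meaning is not given in the sources used here and which entered no result. Each tag was moved 125 bp towards the middle of the 250-bp fragment and counted within 1 kb of the start with the most H3K4me3 tags of each GENCODE M1 gene, with duplicates kept. Uniqueness of 36-base words, hairpins and promoters were read from the mm9 genome (NCBIM37). Intervals came from scipy 1.17.1 and counts from numpy 2.4.6 and pandas 2.3.3 (Python 3.11.15), and figures from matplotlib 3.10.9. The comparison step was tested on simulated counts, and window counting was checked against a plain loop over simulated positions. The marking rule, the sequence searches and the other steps were not tested on simulated data. The members and the lists were chosen with earlier results of these data known. Named members were all H1, Hist3h and Hist4 genes, testis genes, members without tags, the 3 highest and 3 lowest per library, the member nearest each family's median in wt PILECs, and members called in a comparison (all if up to 10, otherwise the 5 largest in each direction). Other members named in sentences on hairpins, sequences, annotation or intervals were chosen after their values were seen. Of 11 replication-independent histone genes and 5 neural markers listed, 10 and 4 were found by symbol.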

Additional observations from a re-analysis of the deposited data

How the results depend on the processing

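No member's called ratio changed sign under the alternatives, of which 15 were planned and 3 (0.5 RPM added, the start of the coding part, and no tag added to the ratio to input) were chosen after seeing the data. The median log2 ratio ran from 0.23 to 0.58 for wt PILECs over wt mESCs, 0.02 to 0.46 for menin-null PILECs over menin-null mESCs, −0.24 to −0.01 for menin-null over wt PILECs and −0.07 to 0.18 for menin-null over wt mESCs, whose direction turned from 0.15 to −0.07 when centred on the median of all genes. Members called higher in menin-null mESCs (2) became 1 with 1 tag per position, within 2 kb, centred on the median of all genes, with overlapping windows counted once and from the coding start, 0 with tags not moved or 5 tags added, and 4 at 1.5-fold. Members called lower there (0) became 2 within 500 bp, within 2 kb, centred, and divided by local input. In PILECs the genotype calls (0) became 1 higher within 500 bp, and 1 lower with PILEC libraries thinned or at 1.5-fold. The 18 members higher in wt PILECs became 10 with 5 tags added, and the 3 lower became 5 at 1.5-fold. The 6 higher in menin-null PILECs became 2 with 1 tag per position, 13 within 500 bp, 15 centred, 0 with 5 tags added and 15 at 1.5-fold. The 1 lower became 2 with 1 tag per position, thinned or from the coding start, 0 within 500 bp, centred or merged, and 4 at 1.5-fold. Marked members in wt mESCs became 35 within 500 bp and 57 with no tag added to the ratio to input. With each library scaled to its tags near protein-coding starts, which divides out enrichment over input, 1, 0, 0 and 2 were marked in wt mESCs, menin-null mESCs, wt PILECs and menin-null PILECs, and counting merged stretches gave 33, 35, 37 and 37 of 40. Shares of all genes under these alternatives were computed only for calls centred on the median of all genes. The other counts thus have no background share beside them. Where no construction is named, the cause was not tested. Of single-gene values, 378 kept their call and 70 lost it. No paired analysis was possible because each group held 1 library. Precision was lowest in the comparison of the 2 mESC libraries, where the median width of the members' intervals was 1.59 on the log2 scale, against 0.53 in that of the 2 PILEC libraries.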
